A study of Mus musculus with 30 samples.

Results

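The comparison set the livers of 5 control mice of the HFCFD8W+T10D experiment against the livers of 5 control mice of the HFCFD2W experiment. The members were taken by their group labels alone and are 10 of the 30 libraries in the series. Each library holds the poly(A) RNA of 1 liver. The series examined the loss of hepatocyte CEBPA, a transcription factor of differentiated hepatocytes, in a mouse model of metabolic dysfunction-associated steatohepatitis (MASH). It had 3 experiments, each with Cebpa knockout mice and Cebpa fl/fl controls, and only the controls enter the comparison below except where the knockout livers are named.

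All 10 mice were male, carried Cebpa fl/fl alleles (Cebpa flanked by loxP sites) and no Cre, and ate the HFCFD, a diet high in fat, cholesterol and fructose that produces a fatty liver and later fibrosis. The HFCFD8W+T10D mice had 8 weeks of HFCFD and 10 days of tamoxifen, and the HFCFD2W mice had 2 weeks of HFCFD and no tamoxifen. Tamoxifen is a drug that binds the estrogen receptor, and in this study it served to switch on an inducible Cre that the fl/fl mice lack. The HFCFD8W+T10D controls came from the breeding with the albumin-ERT2-Cre line and the HFCFD2W controls from the breeding with the albumin-Cre line, both backcrossed to C57BL/6N. Tamoxifen was given over the last 10 days of feeding, by the study's description. The age at the start of the diet, the hour of collection and fasting before collection are not given in the sources used here. Time on the diet, tamoxifen, breeding and experiment change together between the groups and cannot be told apart in any value that follows. The same holds for age, hour of collection and fasting, should the groups differ in them. The mice of 1 group are separate animals by their labels.

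Library totals ran from 8579912 to 9956891 counts in HFCFD8W+T10D and from 7996128 to 9462429 in HFCFD2W (two-sided exact permutation test, p = 0.0952). The number of genes with at least 1 count was larger in every HFCFD8W+T10D library, at 15539 to 16249 against 14793 to 15388 (exact permutation p = 0.00794, the smallest that 5 against 5 allows). The share of counts from mitochondrial genes was 5.35 to 7.67% and 6.00 to 7.07%. Markers of hepatocytes summed to 103069 to 131666 and 99537 to 130408 CPM, which are counts scaled to a common library total, so both groups read as liver, and the Y-linked Ddx3y was at 42.2 to 55.2 and 51.1 to 72.7 CPM while Xist, the RNA of the inactive X, had 0 counts in all 10. No pair of libraries differed by less than sampling noise. CPM values use TMM-scaled totals, folds are HFCFD8W+T10D over HFCFD2W on the log2 scale with their standard error (SE), and a gene passed where edgeR's quasi-likelihood test gave a Benjamini-Hochberg adjusted p under 0.05. The SE was derived from that test, as the absolute log2 fold change over the square root of its F value.

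The groups differed over a large part of the liver transcriptome. Of 11436 genes tested, 5033 (44.0%) passed, 2679 of them higher (23.4%) and 2354 lower (20.6%) in HFCFD8W+T10D. Large changes were mostly upward: 1038 genes (9.08%) were called higher and 273 (2.39%) called lower, a call being a passed gene with a fold over 2. For 3387 genes (29.6%) the CPM of the 5 mice of one group did not overlap with those of the other. The median log2 fold change over all genes tested was 0.02. Each gene list below is given by how many of its tested members rose or fell, beside this background of 23.4% and 20.6%. Where none of the tested members of a list was higher, or none lower, none of these tested members was so at an unadjusted p under 0.05 by edgeR or adjusted by DESeq2, with the exception of 1 matrix gene lower by DESeq2 and 1 ribosomal protein gene lower by both measures. DESeq2 also tested lower-level members, and lists where that matters are given with both counts. A member near absent in one group can pass the filter only through the group where it is high. Counts of lists with many members too low to be tested are therefore a description.

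**Figure D1:**
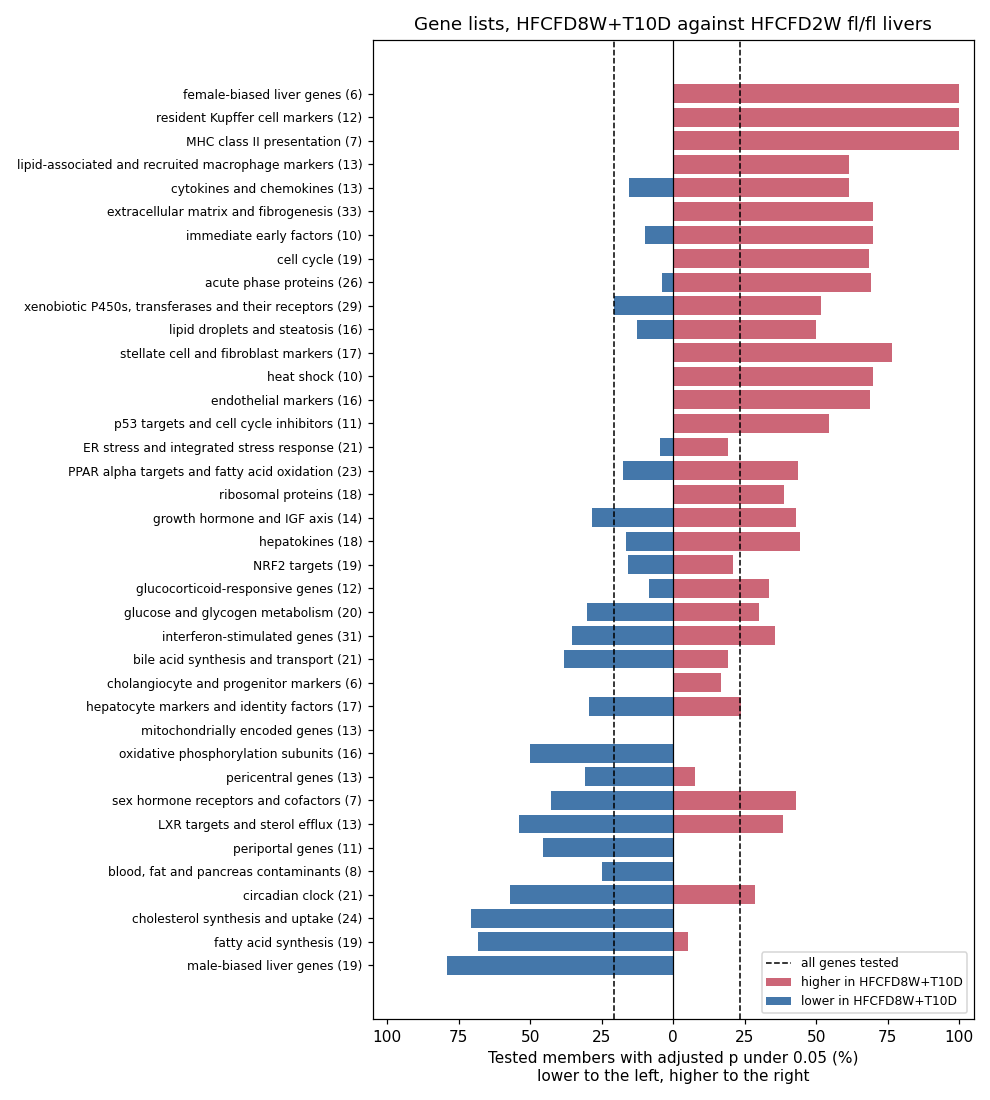
Share of the tested members of each gene list that passed higher (bars to the right) or lower (bars to the left) in HFCFD8W+T10D than in HFCFD2W fl/fl livers, in percent, for lists with at least 6 tested members; the dashed lines mark all genes tested, 23.4% higher and 20.6% lower. Kupffer cell, MHC class II and female-biased lists lie wholly to the right, and male-biased, cholesterol synthesis and fatty acid synthesis lists mostly to the left. The female-biased bar covers 6 of 18 genes listed, 12 being too low to be tested. Low genes pass the filter only through the group where they are high, so that bar is a description.

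The circadian clock of hepatocytes is a loop of transcription factors. ARNTL (BMAL1) and CLOCK bind E-boxes and activate the Per, Cry, Nr1d1, Dbp and Ciart genes. The PER, CRY and CIART proteins in turn repress ARNTL and CLOCK, and the REV-ERB proteins NR1D1 and NR1D2 repress the Arntl, Clock, Cry1 and Nfil3 genes through RORE sites. DBP and TEF activate and NFIL3 represses genes with D-boxes. Levels of these RNAs swing over the day, so a single collection reads the phase at that hour, and the hour is not given in the sources used here.

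Promoters of 4 clock genes are shown because they hold the 3 kinds of site through which the loop runs. They are RefSeq sequences on GRCm38.p6, written 5′ to 3′ on the strand of the gene, with the searched motifs in capitals. For Ciart (chr3:95882229-95882478, minus strand), Cry1 (chr10:85185055-85185304, minus strand) and Per3 (chr4:151044666-151044915, minus strand) the run is the 250 bases before the transcription start. For Arntl (chr7:113207528-113207557, plus strand) it is the 30 bases around a site after the start.
Ciart: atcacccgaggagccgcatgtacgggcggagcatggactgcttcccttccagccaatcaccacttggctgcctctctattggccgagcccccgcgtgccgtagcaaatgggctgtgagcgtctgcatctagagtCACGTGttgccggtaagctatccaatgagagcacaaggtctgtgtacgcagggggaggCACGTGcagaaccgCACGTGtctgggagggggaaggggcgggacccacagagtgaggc
Cry1: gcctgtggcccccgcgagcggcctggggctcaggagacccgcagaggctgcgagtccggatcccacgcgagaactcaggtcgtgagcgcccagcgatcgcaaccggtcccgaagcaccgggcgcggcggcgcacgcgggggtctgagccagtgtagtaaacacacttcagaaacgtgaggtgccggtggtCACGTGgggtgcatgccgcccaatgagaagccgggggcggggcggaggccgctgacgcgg
Per3: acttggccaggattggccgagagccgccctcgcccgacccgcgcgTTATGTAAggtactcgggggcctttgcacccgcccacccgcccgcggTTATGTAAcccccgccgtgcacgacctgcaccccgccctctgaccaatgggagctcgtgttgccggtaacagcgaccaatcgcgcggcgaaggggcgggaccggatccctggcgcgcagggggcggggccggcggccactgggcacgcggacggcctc
Arntl: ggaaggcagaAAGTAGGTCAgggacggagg
The capitals are the E-box CACGTG in Ciart, which has it 3 times with first bases at -116, -58 and -44, and in Cry1, once at -60. They are the D-box TTANGTAA in Per3, at -205 and -158, and the RORE in Arntl, whose first base is 27 bases after the start. The RORE was searched as an A, any 2 bases, a T and then AGGTCA or GGGTCA. Both strands were searched in windows of 250 bases before to 50 after each start. Of the 22 clock genes listed, 18 had a window in the RefSeq table: 5 held an E-box (Per1, Cry1, Tef, Bhlhe41 and Ciart), 1 a D-box and 1 a RORE. Counted by window, 6 of 23 held an E-box, 1 a D-box and 1 a RORE. Among 32851 mouse promoter windows 7.15% held the E-box, 2.32% the D-box and 1.60% the RORE. The windows of Dbp and Nr1d1 held none of the 3 motifs. A match is a run of letters and was not tested for binding.

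The clock genes stood at different levels in the 2 experiments, with the activator arm high and most of its targets low in HFCFD8W+T10D. Of 21 clock genes tested, 6 rose and 12 fell (28.6% and 57.1%), and the groups did not overlap in 16. Arntl was at 13.8, 12.2, 12.1, 14.4 and 19.03 CPM in the 5 HFCFD8W+T10D mice and at 0.393, 0.790, 0.416, 0.121 and 0.505 CPM in the 5 HFCFD2W mice. The highest HFCFD2W mouse lay far below the lowest HFCFD8W+T10D mouse. The log2 fold change of Arntl was 4.98 ± 0.26 (SE, adjusted p = 5.57e-08).

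Clock, which encodes the partner of ARNTL, averaged 46.4 ± 10.4 CPM (SD, n = 5) against 20.4 ± 2.10 CPM and rose by 1.19 on the log2 scale (adjusted p = 1.79e-05). Nfil3, the D-box repressor, was at 45.2, 35.1, 36.1, 31.7 and 36.9 CPM against 7.73, 11.7, 7.60, 9.93 and 7.32 CPM (log2 fold change 2.06 ± 0.14, adjusted p = 3.05e-07). Cry1, the repressor whose promoter is shown above, was at 30.9, 26.2, 26.99, 36.9 and 34.0 CPM against 4.46, 7.24, 7.81, 6.78 and 3.79 CPM (log2 fold change 2.36 ± 0.17, adjusted p = 6.35e-07). No HFCFD2W mouse reached the lowest HFCFD8W+T10D mouse for Clock, Nfil3 or Cry1.

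Dbp, the E-box-driven D-box activator, moved the other way. Its level was 2.56, 3.64, 4.46, 5.66 and 2.18 CPM in HFCFD8W+T10D and 69.6, 102, 94.7, 75.8 and 96.5 CPM in HFCFD2W (log2 fold change -4.56 ± 0.20, adjusted p = 9.70e-09). Every HFCFD2W mouse was more than 10 times above every HFCFD8W+T10D mouse. Ciart, a repressor of ARNTL and CLOCK with 3 E-boxes in the stretch above, was at 0.641, 0.939, 0.638, 0.278 and 0.906 CPM against 6.16, 9.48, 7.81, 8.84 and 9.60 CPM (log2 fold change -3.61 ± 0.24, adjusted p = 3.19e-07). Nr1d1 was at 5.02, 5.28, 4.04, 6.49 and 7.07 CPM against 42.5, 65.4, 37.7, 30.4 and 31.2 CPM (log2 fold change -2.88 ± 0.22, adjusted p = 8.66e-07), and its paralogue Nr1d2 fell by 1.12 on the log2 scale (adjusted p = 7.83e-06). Per3, with its D-box pair, fell as well, at 3.74, 3.05, 5.00, 4.55 and 2.72 CPM against 8.65, 8.69, 17.6, 8.23 and 6.95 CPM (log2 fold change -1.40 ± 0.26, adjusted p = 0.000756), and Tef had a log2 fold change of -1.06 (adjusted p = 1.80e-06).

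Per1 and Per2, the period genes that also respond to hormones and feeding, did not pass. Per1 averaged 12.8 ± 5.02 against 18.05 ± 5.35 CPM (log2 fold change -0.50 ± 0.28, adjusted p = 0.161) and Per2 14.9 ± 4.34 against 19.4 ± 3.57 CPM (log2 fold change -0.39 ± 0.20, adjusted p = 0.121). Npas2, which can take the place of CLOCK, was too low to be tested: HFCFD8W+T10D mouse 5 was at 4.71 CPM and the other 9 livers were at 0.557 CPM or less.

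**Figure D2:**
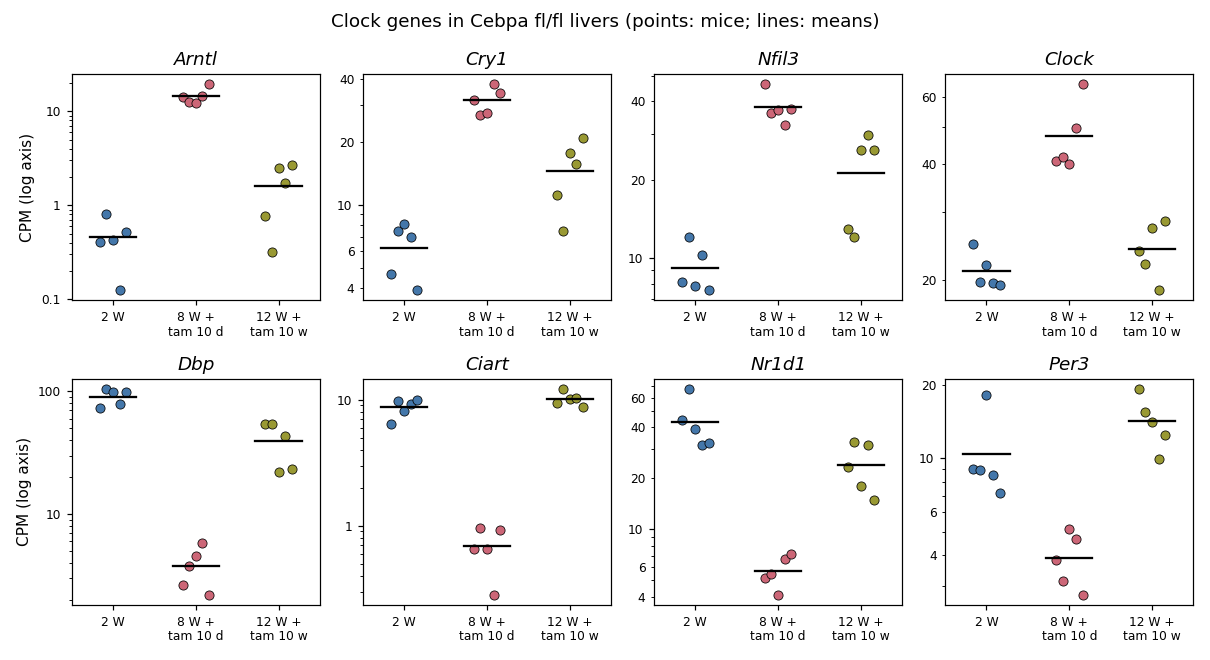
Levels of 8 clock genes in every fl/fl liver of the 3 experiments (2 W, HFCFD2W; 8 W + tam 10 d, HFCFD8W+T10D; 12 W + tam 10 w, HFCFD12W+T10W), in CPM on a log axis scaled over the 15 livers; points are mice and lines are group means, with 5 mice a group. Arntl, Cry1, Nfil3 and Clock stood higher and Dbp, Ciart, Nr1d1 and Per3 lower in HFCFD8W+T10D than in HFCFD2W, and the HFCFD12W+T10W mice lay nearer to HFCFD2W for Arntl and Ciart.

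Cytochrome P450 enzymes of the Cyp2b, Cyp2c and Cyp3a families oxidise drugs and steroids, and 2 nuclear receptors, CAR (Nr1i3) and PXR (Nr1i2), induce them in hepatocytes. Of 29 genes tested in the list of xenobiotic P450s, transferases and their receptors, 15 rose and 6 fell (51.7% and 20.7%), with a median log2 fold change of 0.62. A further 6 of the 35 listed were not tested. Cyp2b10, the P450 most used as a readout of CAR (ENSMUSG00000030483.14, chr7:25897620-25926624, plus strand), had the largest fold change of all genes tested. It was at 635, 487, 476, 235 and 762 CPM in HFCFD8W+T10D and at 0.393, 0.395, 0.521, 0.121 and 0.631 CPM in HFCFD2W, where no library had more than 5 counts. The log2 fold change was 10.24 ± 0.41 (adjusted p = 2.98e-09).

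Other P450s of the same response were already expressed in HFCFD2W and rose by smaller factors. Cyp3a11, a PXR target, was at 3255, 3209, 2714, 1971 and 4569 CPM against 1042, 1542, 1305, 1169.8 and 1375 CPM (log2 fold change 1.29 ± 0.19, adjusted p = 0.000115). Cyp2c29 averaged 4012 ± 819 against 1600.2 ± 182 CPM (log2 fold change 1.33 ± 0.14, adjusted p = 1.18e-05) and Cyp2c37 740.5 ± 148 against 246 ± 33.8 CPM (log2 fold change 1.59 ± 0.14, adjusted p = 1.91e-06). The groups did not overlap in any of these. Por, the reductase that feeds electrons to all microsomal P450s, rose by 0.61 (adjusted p = 0.000378).

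Of the receptors, Nr1i2 rose by 0.63 (adjusted p = 0.000212) and Nr1i3 was at 70.7 ± 17.9 against 57.0 ± 8.56 CPM, which did not pass (adjusted p = 0.108). Among the genes that fell were Gstm4, a glutathione transferase (log2 fold change -1.43 ± 0.17, adjusted p = 2.83e-05), Ugt2b35, a glucuronosyltransferase (log2 fold change -1.10 ± 0.16, adjusted p = 0.000130), and Cyp1a2, the pericentral P450 driven by the aryl hydrocarbon receptor (log2 fold change -0.76 ± 0.13, adjusted p = 0.000378). P450 and transferase genes lie in clusters of near-identical copies among which the authors' counting divides reads by estimate, so values of single members are uncertain.

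In rodents pulsed male growth hormone, acting through STAT5B, keeps a set of liver genes high in males and low in females, and a steadier hormone level does the reverse. These mice were all male. Of 19 male-biased genes tested, 15 fell and none rose (78.9% lower), and the median over the list was -1.93. Cyp4a12b, a male fatty acid hydroxylase, was at 4.92, 3.87, 3.83, 5.84 and 0.544 CPM against 154, 186, 134, 218 and 134 CPM (log2 fold change -5.45 ± 0.33, adjusted p = 1.74e-07), and its neighbour Cyp4a12a was at 79.3, 62.5, 17.5, 51.4 and 5.89 against 355, 317, 265, 401 and 349 CPM (log2 fold change -2.97 ± 0.48, adjusted p = 0.000286). No HFCFD8W+T10D mouse reached the lowest HFCFD2W mouse for either gene, and within HFCFD8W+T10D mouse 5 was the lowest for both.

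Hsd3b5, a male steroid reductase of the 3-beta-hydroxysteroid dehydrogenase family, was at 1.92, 5.75, 20.6, 14.5 and 0.0906 CPM against 231, 213, 191, 291 and 208 CPM (log2 fold change -4.73 ± 0.60, adjusted p = 4.01e-05). Major urinary proteins, pheromone carriers made by male liver, fell together: Mup7 went from 14488, 1399.5, 3357, 11461 and 4212 CPM in HFCFD2W to 214, 315, 1101, 383 and 5.08 CPM (log2 fold change -4.11 ± 0.96, adjusted p = 0.00357). Mup21 was at 51.3, 62.0, 23.3, 66.0 and 22.6 CPM against 299, 302, 281, 529 and 298 CPM (log2 fold change -2.93 ± 0.31, adjusted p = 9.70e-06). Mup20, the male pheromone darcin, changed by -2.42 (adjusted p = 4.99e-05), and Mup14, Mup8 and the pseudogene Mup-ps19 by -3.93, -3.38 and -2.94. Mup genes are near-identical copies and the split of reads between them is uncertain. Cyp2d9 had a log2 fold change of -1.63 (adjusted p = 3.35e-05).

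Of 18 female-biased genes listed, 12 were too low to be tested, and the 6 tested, Cyp2b9, Cyp2c69, Cyp2c40, Cyp2a4, Acot3 and Abcd2, were all higher in HFCFD8W+T10D. Genes this low pass a filter on counts only through the group where they are high, so this count is a description. Cyp2b9, a female P450 next to Cyp2b10, was at 129, 94.7, 34.3, 67.2 and 169 CPM against 0.786, 5.66, 4.37, 0 and 5.18 CPM (log2 fold change 4.94 ± 0.55, adjusted p = 1.54e-05). Cyp2c69 averaged 34.6 ± 19.1 against 1.43 ± 1.06 CPM (log2 fold change 4.62 ± 0.57, adjusted p = 3.21e-05), and Cyp2c40 69.1 ± 29.6 against 5.61 ± 3.05 CPM (log2 fold change 3.63 ± 0.43, adjusted p = 2.55e-05). Cyp2a4, a testosterone hydroxylase, was at 436, 827, 508, 475 and 435 CPM against 29.7, 227, 118, 10.0 and 167 CPM (log2 fold change 2.28 ± 0.58, adjusted p = 0.00652). Mouse 5 of HFCFD8W+T10D was the highest for Cyp2b9 and mouse 2 for Cyp2a4, and neither gene overlapped between the groups. Acot3 and Abcd2 rose by 1.839 and 1.55 (adjusted p = 0.00211 and 0.0230) with overlap, Abcd2 missing the threshold in 3 of the 10 fits without 1 mouse (adjusted p up to 0.0654). Among those not tested, Cyp2b13 was at 0.744 to 8.43 CPM in HFCFD8W+T10D with 1 count over the 5 HFCFD2W libraries, a ratio of 146 (95% interval 25.9 to 5806) of the groups' summed counts at equal depth, the interval covering counting error only. Cyp3a44 and Cyp3a41a, also with 1 count each in HFCFD2W, had ratios of 315 (95% interval 56.2 to 12470.2) and 86.0 (95% interval 15.1 to 3431).

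Of 14 genes of the growth hormone axis tested, 6 were higher and 4 lower (42.9% and 28.6%, beside 23.4% and 20.6% of all genes). Prlr, the prolactin receptor and a female-biased gene of mouse liver, rose (log2 fold change 2.19 ± 0.23, adjusted p = 9.21e-06). Socs2, the STAT5-driven feedback inhibitor, was at 16.8, 30.4, 68.9, 16.2 and 57.5 CPM against 4.85, 1.844, 3.02, 1.82 and 3.66 CPM (log2 fold change 3.64 ± 0.46, adjusted p = 4.25e-05). Cish, another STAT5 feedback gene, rose by 1.90 (adjusted p = 0.00890). Bcl6, a repressor that STAT5 holds down and that favours male genes, fell (log2 fold change -2.81 ± 0.69, adjusted p = 0.00476), though its HFCFD2W mice split into 56.1, 60.0 and 52.3 CPM in mice 2, 4 and 5 and 3.80 and 3.64 CPM in mice 1 and 3, and the groups overlapped. The growth hormone receptor Ghr changed by -0.57 (adjusted p = 0.00116), Stat5b by 0.30 (adjusted p = 0.0183, 0.0513 without HFCFD8W+T10D mouse 4 and 0.0560 without HFCFD2W mouse 5), and Igf1, the main hormone made in response, was at 529 ± 55.6 against 498 ± 43.0 CPM (adjusted p = 0.472).

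Of 7 genes tested, out of 10 in the list of sex hormone receptors and cofactors, 3 rose and 3 fell. Esr1, the estrogen receptor alpha to which tamoxifen binds, was at 33.3, 35.9, 38.6, 24.95 and 15.2 CPM against 8.78, 9.35, 12.5, 11.7 and 12.1 CPM (log2 fold change 1.43 ± 0.22, adjusted p = 0.000171). All 5 HFCFD8W+T10D mice lay above all 5 HFCFD2W mice. Hsd17b6, an androgen-metabolising enzyme, fell (log2 fold change -3.01 ± 0.27, adjusted p = 2.24e-06). Greb1, an estrogen-responsive gene, was too low to be tested, at 1.07, 1.17, 1.49, 2.04 and 2.90 CPM against 0, 0, 0.312, 0.242 and 0.253 CPM, a ratio of 10.5 (95% interval 4.89 to 26.9) of summed counts.

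**Figure D3:**
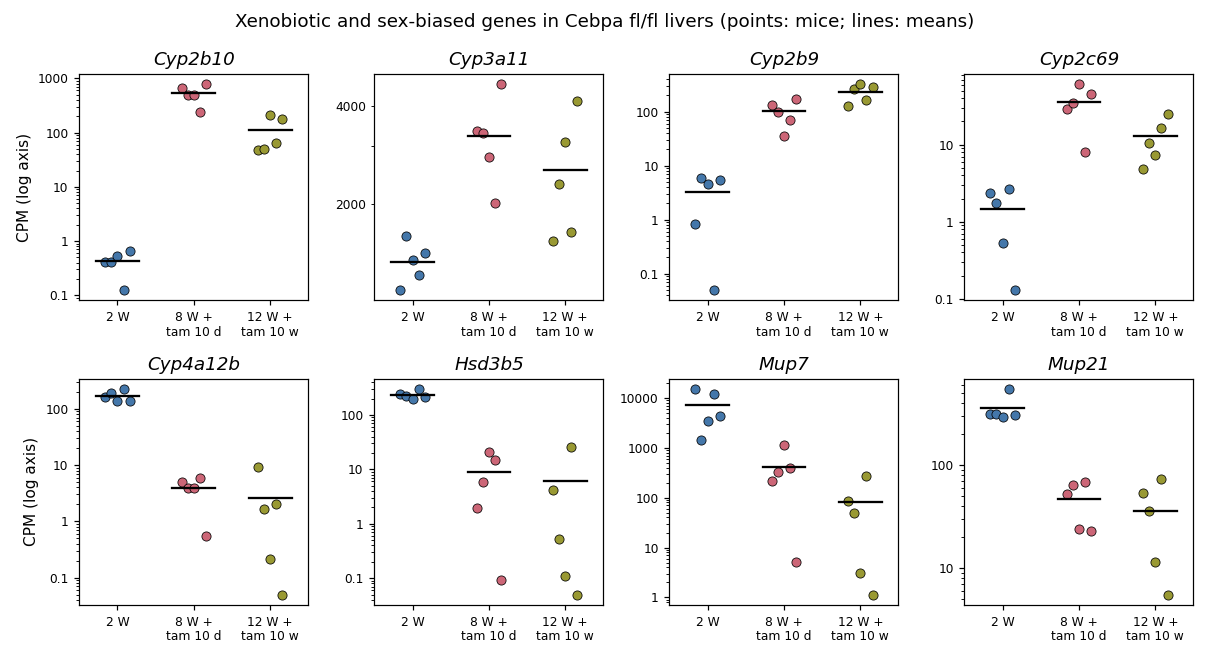
Levels of the xenobiotic P450s Cyp2b10 and Cyp3a11, the female-biased Cyp2b9 and Cyp2c69 and the male-biased Cyp4a12b, Hsd3b5, Mup7 and Mup21 in every fl/fl liver of the 3 experiments, in CPM on a log axis scaled over the 15 livers (points, mice; lines, means of 5 mice; values of 0 drawn at 0.05 CPM). The first 4 genes stood higher and the last 4 lower in HFCFD8W+T10D than in HFCFD2W, with no overlap between these 2 groups.

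Several of the 15 genes named for the largest rises were near absent in HFCFD2W, with at most 3 counts in any library. They are given by the ratio of summed counts with its counting interval. The genes named in each direction were taken from called genes with no overlap between the groups and at least 5 CPM in the higher group. Absence of overlap in them was therefore a condition of the choice and not a result. Slc34a2, a phosphate transporter, was at 39.3, 28.2, 74.5, 21.6 and 48.2 CPM in HFCFD8W+T10D and had 3 counts over the 5 HFCFD2W libraries, a ratio of 577 (95% interval 197 to 2802). The ratio was 94.7 (95% interval 45.8 to 236) for Fam107a, a glucocorticoid-induced actin-binding gene. It was 55.2 (95% interval 26.6 to 138) for Slc22a26, an organic anion transporter, and 52.4 (95% interval 25.2 to 131) for Myom3, a muscle M-band gene. Ptgds, the prostaglandin D synthase, had a ratio of 28.9 (95% interval 15.99 to 58.4) and Corin, a membrane protease, one of 42.3 (95% interval 19.2 to 116).

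Further genes of that rank had more than 3 counts in at least 1 HFCFD2W library. Pcp4l1 was at 61.4, 52.0, 60.5, 42.7 and 65.5 CPM against 2.62, 1.58, 1.56, 2.30 and 1.52 CPM (log2 fold change 4.88 ± 0.17, adjusted p = 7.15e-10). Prtn3, a protease of immature neutrophils, was at 6.73, 11.5, 13.3, 3.80 and 3.53 CPM against 0.131, 0, 0.312, 0.847 and 0.126 CPM (log2 fold change 4.65 ± 0.60, adjusted p = 4.79e-05), HFCFD2W mouse 4 being the highest of its group and the log2 fold change 5.53 without it. Slc22a27, a neighbour and near copy of Slc22a26, averaged 11.6 ± 8.11 against 0.560 ± 0.379 CPM (log2 fold change 4.40 ± 0.60, adjusted p = 7.75e-05).

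On the falling side, Gnat1, the rod transducin subunit, was at 0.427, 0.470, 0.638, 1.30 and 0.272 CPM against 7.73, 6.72, 8.02, 5.57 and 14.3 CPM (log2 fold change -3.72 ± 0.36, adjusted p = 4.97e-06). Enho, which encodes the hepatokine adropin, was at 1.28, 0.939, 4.68, 2.60 and 0.634 CPM against 18.7, 9.61, 11.6, 22.6 and 11.997 CPM (log2 fold change -2.87 ± 0.40, adjusted p = 9.05e-05). The non-coding Hectd2os changed by -3.00 (adjusted p = 6.40e-06), and since the strand setting of the counting is not given in the sources used here, reads of an overlapping gene cannot be told apart from its own.

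Chosen after their values were seen, 4 further genes are given here. Acnat2, of the acyl-CoA amino acid N-acyltransferase family, was at 57.2, 62.1, 74.1, 67.6 and 59.4 CPM against 3.93, 4.48, 3.75, 2.30 and 2.78 CPM (log2 fold change 4.21 ± 0.14, adjusted p = 7.15e-10). Cirbp, the cold-inducible RNA-binding protein, changed by -1.12 (adjusted p = 0.000659). Cyp17a1, a steroidogenic P450, averaged 26.7 ± 10.5 against 2.83 ± 0.647 CPM (log2 fold change 3.24 ± 0.29, adjusted p = 2.34e-06), and Slc2a5, the fructose transporter GLUT5, 2.41 ± 0.444 against 11.9 ± 2.27 CPM (log2 fold change -2.31 ± 0.17, adjusted p = 6.70e-07).

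The stress hormone gene Gdf15 and the growth arrest gene Cdkn1a were also among the genes named for the largest rises. Gdf15, whose product acts on the brainstem to lower food intake, was at 22.3, 11.4, 23.8, 35.5 and 22.9 CPM against 1.05, 0.263, 0.312, 0.121 and 0.379 CPM (log2 fold change 5.76 ± 0.40, adjusted p = 4.30e-07). Cdkn1a (p21), the inhibitor of cyclin-dependent kinases that p53 and other inputs induce, was at 43.9, 75.0, 17.5, 41.0 and 109 CPM against 1.31, 1.05, 1.67, 1.33 and 1.01 CPM (log2 fold change 5.46 ± 0.51, adjusted p = 3.59e-06). The HFCFD2W mice were low in both, and every HFCFD8W+T10D mouse lay more than 10 times above them. Of 11 genes tested among p53 targets and cell cycle inhibitors, 6 rose and none fell, including Eda2r (log2 fold change 2.46 ± 0.36, adjusted p = 0.000121) and Phlda3 (log2 fold change 1.505 ± 0.34, adjusted p = 0.00280). Mdm2, the p53 ubiquitin ligase, rose by 0.29 (adjusted p = 0.0417), a call lost with DESeq2 (adjusted p = 0.120) and in 8 of the 10 fits that left out 1 mouse (adjusted p up to 0.113).

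Proliferation genes rose beside them. Of 19 cell cycle genes tested, 13 rose and none fell, and 13 of the 32 listed were too low to be tested. Members low in HFCFD2W pass the filter on counts only through the group where they are high, so this count is a description. DESeq2 and edgeR with no filter tested all 32 and had 25 higher, and in 6 of the 10 fits without 1 mouse (HFCFD8W+T10D mouse 4 or any HFCFD2W mouse) 21 to 24 were higher. The filter asks for counts in fewer libraries where 1 mouse is left out, so more low members could be tested in such fits. Mki67, which marks cycling cells, was at 7.16, 6.93, 8.82, 2.88 and 8.88 CPM against 0.655, 0.658, 1.04, 0.363 and 0.631 CPM (log2 fold change 3.32 ± 0.35, adjusted p = 9.89e-06). Top2a, the topoisomerase of S and G2 phase, rose by 2.99 (adjusted p = 3.31e-05), Ccna2 by 2.74 (adjusted p = 5.62e-05) and Rrm2, which makes deoxynucleotides, by 1.82 (adjusted p = 1.88e-05). Ccnd1, the growth-factor-driven cyclin of G1, did not pass, at 23.6 ± 9.60 against 17.7 ± 5.25 CPM (adjusted p = 0.262). Whole liver does not show which cells cycled, and for any cell type fewer or more cells and less or more RNA per cell cannot be told apart in bulk RNA.

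Among 10 heat shock genes tested, 7 rose and none fell. Hsp90aa1, the inducible cytosolic HSP90, was at 429, 419.7, 393, 365 and 251 CPM against 132, 114, 115, 119 and 124 CPM (log2 fold change 1.62 ± 0.13, adjusted p = 1.05e-06), and the small heat shock gene Hspb1 rose by 2.07 (adjusted p = 4.44e-06). Fkbp5, an HSP90 cochaperone and the best-known glucocorticoid-induced gene of liver, was at 112, 147, 128, 143 and 206 CPM against 19.9, 20.9, 29.1, 28.6 and 21.8 CPM (log2 fold change 2.61 ± 0.17, adjusted p = 2.55e-07). The list of glucocorticoid-responsive genes that holds it had 4 of 12 higher and 1 lower, with a median of 0.08. These shares were 33.3% and 8.33%, beside 23.4% and 20.6% of all genes. Of 18 immediate early factors listed, 8 were not tested. Of the 10 tested, 7 rose and 1 fell. Low members pass the filter on counts only through the group where they are high, so this count is a description. Jun was among the higher (log2 fold change 1.64 ± 0.23, adjusted p = 9.71e-05).

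Of 21 genes of the unfolded protein and integrated stress response tested, 4 rose and 1 fell, and without HFCFD8W+T10D mouse 5 the number higher was 10. Creld2 rose (log2 fold change 1.60 ± 0.27, adjusted p = 0.000341), while the main chaperone of the endoplasmic reticulum, Hspa5, was at 847 ± 291 against 621 ± 77.5 CPM (adjusted p = 0.0914). Of 19 NRF2 targets tested, 4 rose and 3 fell (21.1% and 15.8%, near the 23.4% and 20.6% of all genes). There were 7 higher without HFCFD8W+T10D mouse 3 and 5 lower by DESeq2. Hmox1, heme oxygenase 1, which macrophages also express, rose (log2 fold change 1.88 ± 0.13, adjusted p = 3.74e-07).

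Hepatocytes sense cholesterol through SREBP2, which drives sterol synthesis and lipoprotein uptake when sterols are low, and through LXR, which drives sterol export when they are high. Of 24 genes of cholesterol synthesis and uptake tested, 17 fell and none rose (70.8% lower), with a median log2 fold change of -0.68. Fdft1, squalene synthase, was at 18.1, 14.7, 19.7, 15.2 and 15.9 CPM against 36.0, 43.6, 41.6, 39.3 and 41.9 CPM (log2 fold change -1.28 ± 0.09, adjusted p = 5.92e-07). Tm7sf2, a sterol reductase, was at 21.7, 24.3, 21.1, 15.6 and 22.2 CPM against 51.5, 78.6, 49.1, 57.5 and 71.7 CPM (log2 fold change -1.56 ± 0.15, adjusted p = 3.99e-06). The groups did not overlap in either. Hmgcs1, an early enzyme of the pathway, was at 58.6 ± 10.1 against 55.7 ± 10.2 CPM, which did not pass (adjusted p = 0.687).

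LXR targets and sterol efflux genes moved in both directions, 5 of 13 higher and 7 lower. Abcg8 and Abcg5, the paired transporters that secrete sterols into bile, changed by -1.503 and -1.06 (adjusted p = 1.84e-06 and 0.000134). Soat2, the hepatocyte enzyme that esterifies cholesterol, was at 8.01, 8.45, 6.16, 7.51 and 7.07 CPM against 23.6, 23.97, 25.7, 21.2 and 24.4 CPM (log2 fold change -1.68 ± 0.10, adjusted p = 1.74e-07). Soat1, its isozyme of macrophages and other cells, rose (log2 fold change 1.87 ± 0.21, adjusted p = 1.60e-05), as did Mylip, a ubiquitin ligase that LXR induces (log2 fold change 1.22 ± 0.12, adjusted p = 5.21e-06), and the phospholipid transfer protein Pltp (log2 fold change 1.23 ± 0.17, adjusted p = 9.21e-05).

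Fatty acid synthesis genes fell as a group, 13 of 19 tested, with 1 higher and a median of -0.85. Srebf1, which encodes the transcription factor that drives lipogenesis, was at 222, 166, 184, 180.0 and 66.7 CPM against 598, 590.5, 633, 871 and 659.8 CPM (log2 fold change -2.03 ± 0.25, adjusted p = 2.80e-05). Scd1, the desaturase that makes oleate, was at 6250.3, 6132, 7432, 4116 and 5135 CPM against 13925, 26176, 21031, 13086 and 32682 CPM (log2 fold change -1.88 ± 0.25, adjusted p = 5.46e-05). The groups did not overlap in either. Acss2, which makes cytosolic acetyl-CoA, had a log2 fold change of -1.36 (adjusted p = 8.36e-07), and Acly and Fasn fell by 0.94 and 1.02 (adjusted p = 0.00382 and 0.0126) with overlapping groups.

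Lipid droplets store the fat of hepatocytes behind a coat of proteins. Of 16 lipid droplet genes tested, 8 rose and 2 fell. Plin4, a droplet coat protein best known from adipocytes, was at 35.8, 38.6, 14.3, 52.7 and 78.1 CPM against 2.62, 4.74, 5.31, 1.45 and 2.65 CPM (log2 fold change 3.69 ± 0.43, adjusted p = 1.98e-05). Cd36, the fatty acid transporter, was at 203, 241, 123, 169 and 272 CPM against 40.0, 83.4, 54.1, 28.7 and 56.2 CPM (log2 fold change 1.94 ± 0.26, adjusted p = 6.43e-05). Plin5, which links droplets to mitochondria, rose by 1.72 (adjusted p = 6.49e-05) and Cidec, which enlarges droplets, by 2.26 (adjusted p = 0.00246) with overlapping groups. Cidea, of the same family, was not tested and was at 5.88, 14.2, 0.850, 5.47 and 7.52 CPM against 0, 0.263, 0.312, 0.121 and 0.126 CPM, a ratio of 38.9 (95% interval 18.7 to 97.5) of summed counts. The defining adipocyte markers Adipoq, Plin1 and Retn were at 0 in all 10 livers. Plin2, the coat protein of most hepatocyte droplets, was at 334 ± 110.3 against 397 ± 42.7 CPM and did not pass (adjusted p = 0.262), and Cideb changed by -0.39 (adjusted p = 0.00109).

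PPARα, the fasting-activated receptor of fatty acids, had 10 of 23 tested targets and oxidation genes higher and 4 lower. Ehhadh, a peroxisomal oxidation enzyme, was at 1022, 1287, 1059.9, 1048 and 1446 CPM against 385, 408, 330.4, 301 and 360.0 CPM (log2 fold change 1.72 ± 0.12, adjusted p = 5.18e-07). Acot1, an acyl-CoA thioesterase, rose (log2 fold change 2.36 ± 0.20, adjusted p = 1.84e-06), and Pdk4, which blocks glucose oxidation, rose by 3.23 (adjusted p = 0.000458). Fgf21, the fasting and stress hormone, was at 1.92, 2.11, 5.42, 8.63 and 4.08 CPM against 0.786, 0.790, 0.312, 0.121 and 0.379 CPM (log2 fold change 3.23 ± 0.52, adjusted p = 0.000269). Cyp4a14, a classical target, ranged from 275 to 1659 CPM against 56.8 to 553 CPM and did not pass (adjusted p = 0.116), and Creb3l3 changed by -0.64 (adjusted p = 6.56e-05).

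Of 21 bile acid genes tested, 4 rose and 8 fell, with a median of -0.06. Cyp7a1, the rate-limiting enzyme of bile acid synthesis, was at 92.5, 124, 86.7, 75.8 and 80.7 CPM against 254, 285, 236, 431 and 437 CPM (log2 fold change -1.837 ± 0.19, adjusted p = 9.21e-06), and Hsd3b7, a later step, changed by -1.41 (adjusted p = 1.30e-06). Slc10a1 (NTCP), the bile acid uptake carrier, changed by -0.69 (adjusted p = 6.24e-05). Abcc4 (MRP4), which exports bile acids to blood, rose (log2 fold change 2.38 ± 0.35, adjusted p = 0.000120), as did the organic anion carrier Slco1a4 (log2 fold change 1.843 ± 0.26, adjusted p = 9.34e-05). Nr0b2 (SHP), the bile-acid-induced repressor of Cyp7a1, was at 10.8 ± 7.96 against 18.5 ± 2.75 CPM and did not pass (adjusted p = 0.0858).

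Of 20 glucose genes tested, 6 were higher and 6 lower (30% and 30%), near the 23.4% and 20.6% of all genes, with a median of 0.02. Pklr, liver pyruvate kinase, and Slc2a2, the glucose transporter GLUT2, fell by 1.21 and 1.09 (adjusted p = 8.16e-06 and 1.19e-05). Hk2, a hexokinase that healthy hepatocytes hardly express, rose (log2 fold change 1.99 ± 0.29, adjusted p = 0.000137). G6pc, the last step of glucose release, fell with overlapping groups (log2 fold change -1.29 ± 0.35, adjusted p = 0.00913), and Pck1, the first committed step of gluconeogenesis, was at 1618 ± 429 against 1243 ± 403 CPM (adjusted p = 0.178). Of 18 hepatokine genes tested, 8 rose and 3 fell (44.4% and 16.7%), and Igfbp1, which binds IGF1, was among those higher (log2 fold change 2.29 ± 0.54, adjusted p = 0.00369).

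**Figure D4:**
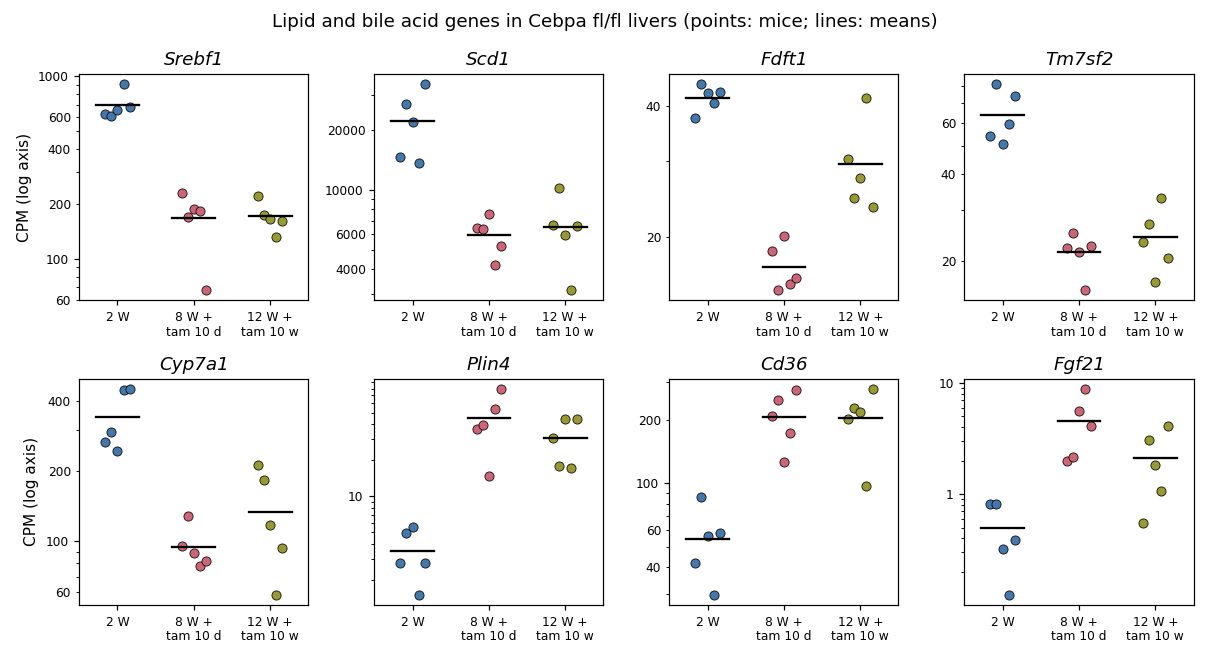
Levels of genes of fatty acid synthesis (Srebf1, Scd1), sterol synthesis (Fdft1, Tm7sf2), bile acid synthesis (Cyp7a1), lipid storage and uptake (Plin4, Cd36) and of the hormone gene Fgf21 in every fl/fl liver of the 3 experiments, in CPM on a log axis scaled over the 15 livers (points, mice; lines, means of 5 mice). The first 5 genes stood lower and the last 3 higher in HFCFD8W+T10D than in HFCFD2W, without overlap.

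Kupffer cells are the resident macrophages of liver sinusoids. All 12 Kupffer cell genes tested of 13 listed rose, against 23.4% of all genes, with a median log2 fold change of 1.96. Clec4f, a lectin specific to Kupffer cells, was at 204, 174, 259, 182 and 161 CPM against 59.2, 47.1, 55.3, 48.5 and 42.8 CPM (log2 fold change 1.95 ± 0.13, adjusted p = 3.37e-07). Cd163, the haemoglobin scavenger receptor, was at 39.9, 36.5, 59.5, 41.6 and 34.2 CPM against 5.77, 4.21, 5.52, 5.33 and 4.04 CPM (log2 fold change 3.08 ± 0.17, adjusted p = 6.80e-08). The growth factor receptor Csf1r, which all macrophages need, was at 123, 146, 141, 92.8 and 88.2 CPM against 36.8, 31.6, 32.0, 31.3 and 32.2 CPM (log2 fold change 1.85 ± 0.14, adjusted p = 7.29e-07). No HFCFD2W mouse reached the lowest HFCFD8W+T10D mouse for Clec4f, Cd163 or Csf1r.

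Marco, a scavenger receptor, rose by 2.18 (adjusted p = 0.000290), and Timd4, a marker of long-lived Kupffer cells, by 1.56 (adjusted p = 0.00170) with overlapping groups. The 5 defining Kupffer markers, Clec4f, Vsig4, Timd4, Cd5l and Marco, summed to 375 to 761 CPM in HFCFD8W+T10D and 137 to 200 CPM in HFCFD2W. How far the number of Kupffer cells takes part in the rise of other genes they express was not tested.

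Genes of lipid-associated and recruited macrophages rose in 8 of 13 tested and fell in none, with 5 of 18 too low to be tested. Clec7a (dectin-1) was at 15.1, 17.7, 14.6, 12.2 and 12.6 CPM against 4.59, 2.77, 3.96, 2.91 and 3.54 CPM (log2 fold change 2.01 ± 0.16, adjusted p = 1.03e-06), and the signalling adaptor Tyrobp rose by 1.95 (adjusted p = 1.48e-06). Trem2, the receptor that defines lipid-associated macrophages, was not tested, at 1.71, 1.06, 2.66, 1.48 and 2.36 CPM against 0.131, 0.132, 0, 0.242 and 0.126 CPM, a ratio of 15.4 (95% interval 6.35 to 48.5) of summed counts. The recruited macrophage markers Trem2, Gpnmb, Itgax, Ccr2 and Ly6c2 summed to 5.57 to 9.08 CPM against 1.04 to 2.90 CPM.

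MHC class II molecules present peptides on macrophages, dendritic cells and B cells. All 7 MHC class II genes tested of 9 listed rose, with log2 fold changes from 1.65 to 2.13. Cd74, the invariant chain, was at 183, 166, 128, 94.8 and 154 CPM against 39.0, 56.1, 33.8, 34.5 and 48.9 CPM (log2 fold change 1.77 ± 0.18, adjusted p = 7.55e-06). H2-Aa rose by 1.78 (adjusted p = 2.55e-05), and Ctss, the protease that processes the invariant chain, by 2.13 (adjusted p = 3.06e-07). Markers of B cells summed to 0.835 to 4.27 CPM against 0.242 to 1.05 CPM, and those of T cells to 0.956 to 2.27 against 0.121 to 1.57 CPM. All 4 B and plasma cell genes tested of 11 listed, the immunoglobulin genes Ighm, Igkc and Igha and the joining chain Jchain, rose, by 0.86, 2.02, 2.84 and 1.73 (adjusted p = 0.0356, 0.000950, 0.00172 and 0.0151). The call of Ighm was lost in 7 of the 10 fits without 1 mouse (adjusted p up to 0.0954). Of 21 T and NK cell genes 2 could be tested, and neither passed with edgeR: Cd4 was at 1.98 ± 0.716 against 2.77 ± 0.988 CPM and Il2rb at 2.06 ± 1.07 against 1.18 ± 0.691 CPM (adjusted p = 0.203 and 0.123). Il2rb passed without HFCFD2W mouse 1 (adjusted p = 0.0342). Of the others, with a few counts a library, the cytotoxic granule genes Gzma and Gzmb and the chemokine receptor Cxcr6 passed higher with DESeq2 (adjusted p = 0.00911, 0.0290 and 0.0310), and 4 genes passed higher in edgeR fits with no filter or over all 30 libraries. The ratio of summed counts was 4.27 (95% interval 2.06 to 9.92) for Gzma, 4.84 (95% interval 1.85 to 16.03) for Gzmb, 4.45 (95% interval 1.837 to 13.03) for Cxcr6, 4.04 (95% interval 1.65 to 11.9) for the T cell kinase Lck and 10.0 (95% interval 1.48 to 428) for Cd8a. DESeq2 had 7 of the 11 B and plasma cell genes higher.

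Of 25 cytokine and chemokine genes listed, 12 were not tested. Among the 13 tested, 8 rose and 2 fell. Low members pass the filter on counts only through the group where they are high, so this count is a description. Ccl6, a chemokine of macrophages, rose (log2 fold change 2.08 ± 0.16, adjusted p = 9.24e-07), and Il18 changed by -0.66 (adjusted p = 0.00305). Of 11 neutrophil genes only Csf3r, the G-CSF receptor, could be tested, and it rose (log2 fold change 1.37 ± 0.49, adjusted p = 0.0351), a call lost in 5 of the 10 fits without 1 mouse (adjusted p up to 0.0828). DESeq2, which also tested lower-level genes, had 5 of the 11 higher. Neutrophil markers summed to 1.11 to 23.3 CPM against 0.262 to 0.968 CPM, the highest being HFCFD8W+T10D mouse 1, with S100a8 at 10.9 and S100a9 at 10.5 CPM. Of 31 interferon-stimulated genes tested, 11 rose and 11 fell, with 7 higher without HFCFD8W+T10D mouse 1 and 7 lower in a fit over all 30 libraries. Oasl2 rose (log2 fold change 1.21 ± 0.16, adjusted p = 5.92e-05) and Ddx58 (RIG-I), a sensor of viral RNA, fell (log2 fold change -0.997 ± 0.09, adjusted p = 2.37e-06).

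Acute phase proteins, which hepatocytes secrete in response to interleukin 6 and related signals, rose in 18 of 26 tested and fell in 1. Lcn2, an iron-sequestering protein, was at 66.4, 70.8, 53.03, 55.4 and 87.2 CPM against 17.2, 4.87, 6.35, 5.08 and 7.96 CPM (log2 fold change 3.02 ± 0.28, adjusted p = 3.37e-06). Orm2, one of 3 near-identical orosomucoid genes, rose by 2.76 (adjusted p = 1.36e-06), and Saa3, the amyloid A gene of macrophages and other cells, by 2.78 (adjusted p = 8.36e-07). Hamp, the iron hormone hepcidin, was at 83.6, 281, 211, 319 and 16.2 CPM against 344, 459, 358, 255 and 527 CPM and did not pass (adjusted p = 0.108).

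Extracellular matrix genes rose in 23 of 33 cases tested (69.7%), and their median was 0.93 on the log2 scale. A further 6 of the 39 listed were not tested. Col1a1, the main fibrillar collagen chain of scars, was at 44.9, 39.7, 15.1, 15.95 and 39.2 CPM against 4.19, 15.9, 9.89, 17.2 and 9.60 CPM (log2 fold change 1.44 ± 0.36, adjusted p = 0.00595). The groups overlapped in Col1a1 and also in Col3a1, which rose by 1.19 (adjusted p = 0.00476). Col4a1, a basement membrane chain, rose without overlap (log2 fold change 1.08 ± 0.18, adjusted p = 0.000286), and so did Dcn, a proteoglycan of stellate cells and fibroblasts (log2 fold change 1.23 ± 0.15, adjusted p = 3.24e-05). Thbs1, which can activate latent TGF-beta, was at 27.6, 7.16, 7.65, 5.47 and 10.97 CPM against 0.786, 0.658, 0.937, 0.726 and 0.884 CPM (log2 fold change 3.85 ± 0.50, adjusted p = 5.41e-05), mouse 1 of HFCFD8W+T10D being the highest.

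Acta2, the marker of myofibroblasts, did not pass, at 2.03, 1.88, 1.49, 1.48 and 1.09 CPM against 1.83, 1.05, 1.25, 1.33 and 3.03 CPM (adjusted p = 0.818). Timp1, an inhibitor of matrix proteases that rises in fibrosis, was too low to be tested, at 2.35, 3.76, 0.638, 0.371 and 2.08 CPM against 0, 0.658, 0.208, 0.121 and 0.126 CPM. Of 17 stellate cell and fibroblast markers tested, 13 rose and none fell, with Pdgfra, the fibroblast PDGF receptor (log2 fold change 1.17 ± 0.24, adjusted p = 0.00143), and Colec11, a collectin of stellate cells (log2 fold change 0.85 ± 0.14, adjusted p = 0.000297), among them. The defining stellate markers Des, Lrat, Reln, Pdgfrb and Hand2 summed to 79.9 to 104.6 CPM against 46.3 to 82.7 CPM, and their part in the matrix result was not tested.

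Endothelial markers rose in 11 of 16 tested and fell in none. Cdh5, the endothelial cadherin, was at 30.5, 29.6, 35.9, 24.95 and 23.7 CPM against 12.8, 10.7, 14.9, 13.9 and 12.8 CPM (log2 fold change 1.14 ± 0.13, adjusted p = 1.24e-05), and the 5 defining markers summed to 139 to 162 CPM against 83.1 to 109 CPM. Of 6 cholangiocyte and progenitor markers tested, 1 rose (16.7%, beside 23.4% of all genes) and none fell, with a median of -0.08. The 1 higher was Krt19, a keratin of bile ducts (log2 fold change 1.64 ± 0.45, adjusted p = 0.00965). A further 7 of the 13 listed were not tested. The defining cholangiocyte markers summed to 10.2 to 14.95 CPM against 7.99 to 12.1 CPM.

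**Figure D5:**
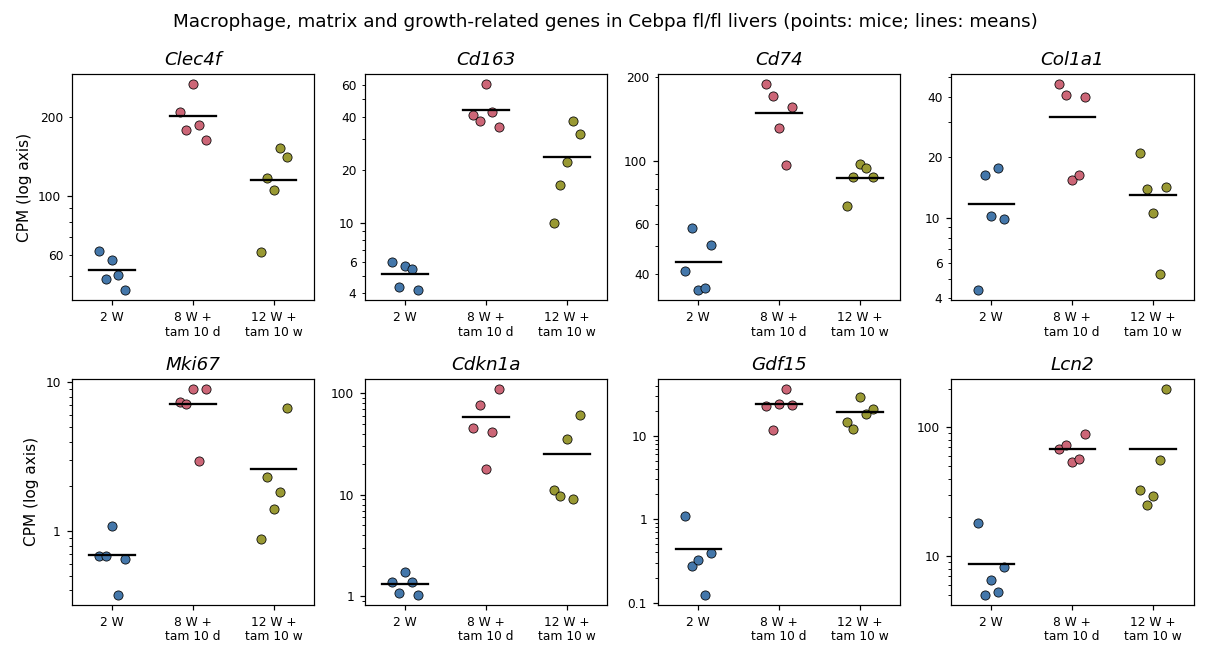
Levels of macrophage (Clec4f, Cd163), antigen presentation (Cd74), collagen (Col1a1), proliferation (Mki67), growth arrest (Cdkn1a), stress hormone (Gdf15) and acute phase (Lcn2) genes in every fl/fl liver of the 3 experiments, in CPM on a log axis scaled over the 15 livers (points, mice; lines, means of 5 mice). All 8 had a higher mean in HFCFD8W+T10D than in HFCFD2W, and Col1a1 is the gene of the 8 in which the 2 groups overlap.

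Cebpa, whose loxP-flanked alleles are intact in these mice, is the gene the study was built on. It was at 112, 129, 143, 136 and 138 CPM in HFCFD8W+T10D and at 165, 172, 153, 131 and 165 CPM in HFCFD2W. The groups overlapped, HFCFD2W mouse 4 lying among the HFCFD8W+T10D mice. The log2 fold change was -0.25 ± 0.09 (adjusted p = 0.0381), and an exact permutation test on log2 CPM gave p = 0.0317 (two-sided). The call was lost under upper quartile scaling (adjusted p = 0.0712) and in a fit over all 30 libraries (adjusted p = 0.104).

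Spp1, which encodes osteopontin and is the gene the study followed downstream of CEBPA, was at 48.8, 33.6, 35.7, 32.2 and 38.8 CPM against 27.1, 28.7, 45.1, 62.9 and 30.1 CPM. Its highest mouse was in HFCFD2W, and the groups overlapped over most of their range. The log2 fold change was -0.04 ± 0.21 (adjusted p = 0.894; exact permutation p = 0.921), so the difference was smaller than its SE.

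Of 17 hepatocyte identity genes, 4 rose and 5 fell (23.5% and 29.4%, beside 23.4% and 20.6% of all genes), with a median of -0.11. Hnf4a, the master regulator of hepatocytes, rose by 0.65 (adjusted p = 0.000122), Apoa1 changed by -0.80 (adjusted p = 0.000487), and Alb was at 88044 ± 10193 against 75093 ± 9587 CPM (adjusted p = 0.155). Zonation genes divide the lobule between the central vein and the portal tract. Of 11 periportal genes tested, 5 fell and none rose: Cyp2f2, a periportal P450, was at 284, 268, 249, 453 and 109.9 CPM against 1843, 1603, 1507, 2111 and 1711 CPM (log2 fold change -2.69 ± 0.28, adjusted p = 7.68e-06). Hal, histidine ammonia-lyase, changed by -1.38 (adjusted p = 1.94e-07) and Cdh1, the epithelial cadherin, by -1.86 (adjusted p = 0.000274).

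Of 13 pericentral genes tested, 1 rose, Slc13a3 (log2 fold change 1.16 ± 0.13, adjusted p = 1.24e-05), and 4 fell, including Rnf43, a Wnt feedback gene (log2 fold change -1.34 ± 0.19, adjusted p = 0.000110). These shares were 7.69% and 30.8%, beside 23.4% and 20.6% of all genes. Oxidative phosphorylation subunits fell by small amounts in 8 of 16, but in 4 under upper quartile scaling and in 4 or 5 without HFCFD8W+T10D mouse 3, 4 or 5 or HFCFD2W mouse 2, 4 or 5, with a median of -0.18 and Sdha at -0.41 (adjusted p = 0.00107). None of 13 mitochondrially encoded genes passed (edgeR, adjusted), while 4 were lower without HFCFD8W+T10D mouse 2, 2 lower in the blocked fit and 1 higher without HFCFD2W mouse 3. Ribosomal protein genes rose by small amounts in 7 of 18. Red cell markers summed to 218 to 383 CPM against 305 to 791 CPM, and of 8 tested genes in the list of blood, fat and pancreas contaminants 2 fell, one being Alas2, the heme synthesis gene of red cell precursors (log2 fold change -2.25 ± 0.20, adjusted p = 2.98e-06). Pancreas markers were at 0 in HFCFD8W+T10D and at 0 to 0.132 CPM in HFCFD2W.

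The HFCFD12W+T10W experiment had 5 more fl/fl mice, with 12 weeks of HFCFD and then 10 more weeks of HFCFD with tamoxifen. It gives a value further along both the diet and the dosing, and it shares its comparison groups with the contrast above, so levels are set side by side on 1 scale over the 15 livers. Cyp2b10 averaged 0.427, 531 and 110.04 CPM in HFCFD2W, HFCFD8W+T10D and HFCFD12W+T10W. Arntl averaged 0.461, 14.6 and 1.59 CPM, and Dbp 90.7, 3.79 and 39.4 CPM in the same order. The HFCFD12W+T10W mean thus lay between the other 2 groups for Arntl, Dbp and Cyp2b10. It also did for Nr1d1, at 42.9, 5.71 and 24.2 CPM in the same order. For Ciart, at 8.67, 0.697 and 10.1 CPM, it lay above both.

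Between HFCFD12W+T10W and HFCFD2W 910 of 11824 genes were called higher (7.70%) and 238 lower (2.01%). Between HFCFD12W+T10W and HFCFD8W+T10D 135 were called higher (1.14%) and 180 lower (1.52%). These 2 groups both had tamoxifen and came from the same kind of breeding, and they differ in diet time, length of dosing and experiment. What sets the size of these counts was not tested. Cd163 averaged 5.15, 43.3 and 23.6 CPM, Mki67 0.694, 7.10 and 2.64 CPM, and Cyp4a12b 171, 3.90 and 2.65 CPM. Slc34a2 was at 0.430 to 5.23 CPM in HFCFD12W+T10W, with a log2 fold change of -4.15 against HFCFD8W+T10D (adjusted p = 9.11e-06).

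The knockout mice of the same 2 experiments, 5 a group, repeat the contrast in other animals. There the genotype also differs between experiments, since Cebpa was deleted in hepatocytes by albumin-Cre in HFCFD2W and by the tamoxifen-induced Cre in HFCFD8W+T10D. Of 11752 genes tested in the knockout livers, 2622 passed higher (22.3%) and 2007 lower (17.1%). Of the 1038 genes called higher in fl/fl livers, 1002 were tested in knockout livers, 948 had the same sign (94.6%) and 839 also passed (83.7%). Of the 273 called lower, 257 were tested, 235 had the same sign (91.4%) and 176 also passed (68.5%).

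The 2 contrasts differed by a test of the interaction in 117 of the 1002 genes (11.7%) and in 81 of the 257 (31.5%), against 1161 of all 12192 genes tested (9.52%). These genes were chosen by their fl/fl contrast, which is part of the interaction, so the shares are a description. Arntl rose in both, by 4.98 in fl/fl and 2.78 in knockout livers, and Dbp changed by -4.56 and -3.20. Cyp2b10 rose by 7.73 in knockout livers (adjusted p = 5.84e-05). Cd163 changed by 3.08 and 1.85, Gdf15 by 5.76 and 3.42, and Cyp7a1 by -1.837 and -2.67. Plin4 rose in fl/fl livers by 3.69 and had a log2 fold change of -0.37 in knockout livers (adjusted p = 0.357), a difference of 4.06 (adjusted p = 0.000155).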

How the data were processed

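The authors sequenced poly(A) RNA of whole liver (TruSeq Stranded mRNA kit) and deposited RSEM tables per library. Their processing notes name Trimmomatic 0.36, STAR 2.5.1, Picard 1.84, RSEM 1.2.22, DESeq2 and the mouse build mm10, and the strand setting is not given in the sources used here. The deposited values used were the authors' expected counts per gene, RSEM estimates that divide reads shared by similar genes. Of the nonzero deposited expected counts 11.3% were not whole, and all were rounded. The deposited TPM columns of the authors were read and give no value in the text. All 55450 gene IDs matched GENCODE M21, and 47 symbols stand for more than 1 gene, of which the one with the most counts was taken.

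The 10 libraries were grouped by the treatment and genotype in the GEO labels, and totals of 7996128 to 9956891 counts set the precision. Genes were kept by filterByExpr, scaled by TMM and tested with edgeR 4.0.16 (quasi-likelihood F test, R 4.3.3) with the group as the only term. P-values were Benjamini-Hochberg adjusted over the 11436 genes, DESeq2 1.42.0 being one alternative. The step was tested on simulated data. Single values and library measures were compared by exact permutation over 252 arrangements, two-sided. Where every HFCFD2W library held 3 counts or fewer, the ratio of summed counts at equal TMM-scaled depth is given with its 95% exact (Clopper-Pearson) interval, which covers counting error only. Spread between these mice is all the p-values measure.

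Named genes are the 15 higher and 15 lower called genes with the largest change, no overlap, at least 5 CPM in the higher group and a symbol that is not a gene model number, then Cebpa and Spp1, and members of 41 gene lists by smallest p or role. Acnat2, Cirbp, Slc2a5, Cyp17a1, Xist and Ddx3y were added after their values were seen. Members and lists were chosen with earlier results of these data known. Some results are not reported here.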

Additional observations from a re-analysis of the deposited data

Results flagged for a closer look

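Of 362 groups of 5 mice examined, 26 held a mouse set apart from the other 4 by Dixon's criterion, and chance gives about 1 in 20 groups. In HFCFD2W the set-apart highest mouse had Per3 at 17.6, Cyp2c37 at 306, Mup21 at 529, Cyp2d9 at 2951, Srebf1 at 871 and Gnat1 at 14.3 CPM. Other genes with a single high HFCFD2W mouse were Gdf15 at 1.05, Eda2r at 0.726, Oasl2 at 4.93, Saa3 at 10.5, Lcn2 at 17.2 and Csf1r at 36.8 CPM. The lowest HFCFD2W mouse stood apart for Ugt2b35 at 253, Hsd17b6 at 109 and Cideb at 209 CPM.

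In HFCFD8W+T10D the set-apart mouse was the highest for Cyp2a4 at 827, Acot1 at 143, Cyp4a14 at 1659, Phlda3 at 2.89, Pdgfra at 13.6 and Thbs1 at 27.6 CPM, and the lowest for Ccna2 at 1.21 CPM. The antibody genes Igha at 56.1 and Jchain at 14.3 CPM were highest in mouse 5. The neutrophil marker sum reached 23.3 CPM in mouse 1, the mouse that was also highest for Thbs1. The pancreas marker sum of 0.132 CPM in 1 HFCFD2W mouse is 1 count.

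For 41 of 165 named genes the contrast between experiments differed between fl/fl and knockout livers by a test of the interaction in edgeR (adjusted p under 0.05), and each value is the log2 fold change in fl/fl livers minus that in knockout livers. Among the named male-biased genes the difference passed at 3.89 for Mup21, 2.36 for Mup20, 4.95 for Mup14, 2.36 for Mup-ps19, 2.30 for Cyp4a12a and 8.55 for Hsd3b5. Among female-biased genes it passed at -4.51 for Cyp2a4, -2.95 for Prlr and -2.60 for Acot3, and it did not pass for Cyp2b9 (adjusted p = 0.502) or Cyp2c69 (1.90, adjusted p = 0.308). Where a group was near 0 counts, as for Hsd3b5, the size depends on the small count that the fit adds.

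Cebpa, at -0.25 in fl/fl and 1.93 in knockout livers, differed by -2.20. Clock genes differed by -1.36 for Dbp, 2.21 for Arntl and 1.26 for Cry1. Xenobiotic genes differed by -2.18 for Gstm4, 0.52 for Nr1i2 and 1.12 for Nr1i3, and hormone genes by 2.65 for Socs2, 1.45 for Esr1, -2.73 for Hsd17b6 and 3.51 for Igfbp1.

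Other differences were 2.34 for Gdf15, 1.55 for Fkbp5, 0.88 for Hsp90aa1, 1.16 for Creld2, 1.68 for Jun and -2.31 for Phlda3. Lipid and glucose genes differed by -0.63 for Fdft1, -1.39 for Scd1, 4.06 for Plin4, 1.32 for Plin5 and 1.55 for G6pc. The rest were Cd163 at 1.22, Ddx58 at -0.99, Rnf43 at -1.70, Cdh1 at -1.22, Hnf4a at 0.69, Alb at 1.18, Fam107a at 6.63, Pcp4l1 at 1.15, Ptgds at 3.69 and Gnat1 at -2.27. Ptgds was too low in the knockout livers to be tested there on its own.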

How the results depend on the processing

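Of 163 named genes besides Cebpa and Spp1, 150 kept their direction and side of the threshold under each of the 19 alternatives that could test them, 11 lost or gained the call and 2, Hmgcs1 (-0.023, -0.025; leave-one-out range -0.025 to 0.13) and Acta2 (0.019, 0.20; range -0.23 to 0.20), changed sign, neither of which passed. The 11 were Stat5b, Mdm2, Ccnd1, Hspa5, Plin2, Cyp4a14, Nr0b2, Csf3r, Il2rb, Ighm and Abcd2. Without HFCFD8W+T10D mouse 5, Ccnd1 (0.59), Hspa5 (0.60) and Plin2 (-0.46) passed with adjusted p of 0.0421, 0.00952 and 0.00826. Nr0b2 passed without HFCFD8W+T10D mouse 1 (-1.31, adjusted p = 0.00172), Cyp4a14 without HFCFD2W mouse 2 (1.63, adjusted p = 0.0457) and Il2rb without HFCFD2W mouse 1 (1.19, adjusted p = 0.0342). Leaving out 1 mouse moved the fold of 12 passed genes by over 1.5 times: to 2.46 for Acot3 (without HFCFD2W mouse 2), 2.86 for Cish (HFCFD2W mouse 3), 5.89 for Corin and 6.36 for Gdf15 (HFCFD2W mouse 1), 5.53 for Prtn3 (HFCFD2W mouse 4), 9.92 for Slc34a2 (HFCFD2W mouse 2), -5.34 for Hsd3b5 and -4.93 for Mup7 (HFCFD8W+T10D mouse 3), 3.25 for Thbs1 (HFCFD8W+T10D mouse 1), and 1.97 for Igha, 1.04 for Jchain and 2.61 for Pdk4 (HFCFD8W+T10D mouse 5) on the log2 scale. Genes called higher numbered 1587 with no low-count filter and 2679 with no fold minimum, and genes called lower 2354 with no fold minimum, the filter and the minimum being what those counts lack. Leaving out 1 mouse gave 988 to 1191 genes called higher and 268 to 301 called lower.

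With no low-count filter, which adds members near 0 counts, list medians moved to 0.24 for hepatokines, 1.74 for lipid-associated and recruited macrophages, 1.59 for T and NK cells, 2.96 for neutrophils and 1.843 for the cell cycle. Leaving out 1 mouse gave medians of -0.20 to 0.0088 for bile acids, 1.21 to 1.55 for cytokines and chemokines, 0.31 to 0.84 for p53 targets and -0.51 to -0.27 for periportal genes. Counts of list members moved by over 1.5 times in some settings. Lower droplet genes went from 2 to 4 without HFCFD8W+T10D mouse 5 and to 1 without HFCFD2W mouse 1 or 2. The 1 higher fatty acid synthesis gene was lost in 7 of 10 fits without 1 mouse. Female-biased genes higher numbered 12 by DESeq2, glucocorticoid genes 2 in the robust fit, and hepatocyte identity genes lower 3 under upper quartile scaling. Contaminant genes lower numbered 4 without HFCFD2W mouse 4, pericentral genes higher 2 without HFCFD8W+T10D mouse 2, and glucocorticoid genes lower 2 without HFCFD2W mouse 3. The 1 lower acute phase gene was lost without HFCFD8W+T10D mouse 1 or HFCFD2W mouse 5, and the 1 lower stress response gene in 5 of 10 fits. The p53 median was highest without HFCFD2W mouse 2, and the bile acid median was lowest without HFCFD8W+T10D mouse 5.

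Cebpa lost its call under upper quartile scaling (-0.22, adjusted p = 0.0712), with the 3 fl/fl groups fitted together (-0.27, adjusted p = 0.0805) and with all 30 libraries (-0.30, adjusted p = 0.104), and leaving out 1 mouse gave -0.32 to -0.21, the call being lost without HFCFD8W+T10D mouse 1 or 2 or HFCFD2W mouse 1, 2 or 5. Spp1 ranged from -0.16 to 0.19 and was above 0 without HFCFD8W+T10D mouse 4 (0.011) or HFCFD2W mouse 3 (0.013) or 4 (0.19). Causes of these shifts were not tested.

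The replicate numbers give no sign of pairing: deviations of same-numbered mice correlated at -0.133 to 0.065 over 2000 genes, and 0 mice correlated best with their own number. With the replicate number as a block, Cebpa was at -0.25 (adjusted p = 0.0719) and Spp1 at 0.015 (adjusted p = 0.962), and Mdm2 lost and Nr0b2 gained the call. Drawing every library down to the lowest total was added after seeing the data and changed the call of Mdm2 among the named genes it could test. Csf3r, Phlda3 and Ccna2 were then too low to be tested, so the neutrophil list had 0 higher. Depth limits genes under about 1 CPM, such as Timp1, Npas2 and most lymphocyte and neutrophil genes, which were not tested.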

Other observations

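HFCFD2W mice 1 and 3 lay apart from mice 2, 4 and 5 for a few genes. Bcl6 was at 56.1, 60.0 and 52.3 CPM in mice 2, 4 and 5 and at 3.80 and 3.64 CPM in mice 1 and 3. Cish, a STAT5 feedback gene, was at 7.99 and 18.2 CPM in mice 1 and 3 and at 1.05, 1.82 and 2.65 CPM in mice 2, 4 and 5. Onecut1, a hepatocyte transcription factor (HNF6), was at 36.8 and 49.97 CPM in mice 1 and 3. It was at 3.16, 3.15 and 19.95 CPM in the others, which did not share a level. These genes were picked after their values were seen, and no test was made.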
